A study of Mus musculus with 74 samples.

Results

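Elastin, the fibrillins, the fibulins and their microfibril partners were compared between primary mammary tumors (PT) and lung metastases (Lung met) of the same mice. The group held 10 genes (Eln, Fbn1, Fbn2, Fbln1, Fbln2, Fbln5, Emilin1, Mfap2, Mfap4 and Mfap5). They were chosen by name as structural elastic fiber genes, with their log2 ratio of Lung met over PT already known, so their ratios are a description and carry no test. All 10 had a mean in both tissues in 4 of the 5 tables used here, against 17270 to 19320 genes of any kind. For FVB Her2 9 of the 10 had both means, among 18208 genes, and Fbln1 was not analysed there.

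Elastic fibers give lung alveolar walls, airways and arteries their recoil. Their core is elastin, secreted as soluble tropoelastin and cross-linked by lysyl oxidases, and it is laid down on a scaffold of microfibrils built from fibrillins. Fibulins and EMILIN-1 sit at the interface of core and scaffold, microfibril-associated proteins (MFAPs) bind along the microfibrils, and fibrillins also hold latent TGF-beta complexes in the matrix.

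The series covers 74 RNA samples from 37 female mice, each giving 1 PT and 1 Lung met sample. Each model had 6 samples per tissue, with the exception of FVB C3Tag, which had 7. The driver models were transgenic mice on the FVB background: FVB Her2 (MMTV-Her2), FVB C3Tag (C3TAg, the simian virus 40 T antigen behind the C3(1) promoter) and FVB Myc (MMTV-Myc), the last not analysed here because its table holds no means. The PyMT-F1 mice were offspring of FVB MMTV-PyMT males, which carry polyoma middle T behind the mouse mammary tumor virus promoter, and AKR/J, BALB or SEA/GnJ females. Every mouse carried an oncogene, and no group without one or of normal lung was part of the comparison. For the PyMT-F1 mice tissue was taken at humane endpoint, while in the driver models tumors of animals with a single lesion were resected first and the animals aged further, so PT and Lung met of such mice also differ in collection time. All primary tumors of a mouse were combined, and whole metastases were used. Ages are not given in the labels.

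Only group means were used, and no value of a single sample or SD was available. The authors' p-values and FDR were left unused, so no p is given and no difference below has a replicate check. Each value is a least-squares mean of a tissue's normalized counts as fitted by the authors, with no correction for gene length, and each table was normalized on its own. Means are therefore compared between tissues of 1 table and never between tables. The titles of the 36 PyMT-F1 samples name another cross than the genotype label in 23 cases, and over all samples the source label names another tissue than the tissue label in 16 cases. Groups follow the titles here. Which cross the columns of the table named for AKR describe was not settled from the sources used here, and that table is called AKR-named throughout. For many of the genes looked up, its fold changes equalled those that the study's supplement lists for BL6, a PyMT-F1 cross that the labels here do not name, so it may not come from any of the 3 crosses above.

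The 10 genes split by direction, and the split was largely shared by the models. Eln, Mfap4, Fbln5 and Emilin1 had the higher mean in Lung met in all 5 tables, Fbn2, Fbln2 and Mfap5 the lower mean in all 5, and Fbln1 the lower mean in the 4 tables with a mean for it. Fbn1 was lower in 4 tables and higher in FVB C3Tag, and Mfap2 was higher in 2 and lower in 3. The 5 tables share no samples by title, but because of the label conflicts it was not settled which mice entered each of the 3 PyMT-F1 tables.

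A gene was counted as different where its means differed at least 2-fold and the higher of both was at least 10. In FVB Her2, 2 of 9 members were higher in Lung met by that rule, beside 2.37% of the 17265 genes past the same minimum, and 3 were lower, beside 1.44%. In FVB C3Tag, 4 of 10 were higher, beside 7.61% of 18524 genes, and 1 was lower, beside 1.68%. BALB PyMT-F1 had 2 higher members, beside 2.21% of 15678 genes, and 4 lower, beside 2.28%, out of the 9 that reached the minimum. SEAGN PyMT-F1 had 2 higher members, beside 2.87% of 15732 genes, and 4 lower, beside 3.15%, out of 10. AKR-named PyMT-F1 had 3 higher members, beside 7.37% of 17026 genes, and 1 lower, beside 1.72%, out of 10. Since the members were selected on these contrasts, nothing is read from their counts against the background. The median log2 ratio over the members was -0.07 in FVB Her2, 0.24 in FVB C3Tag, -0.34 in BALB, -0.55 in SEAGN and 0.15 in AKR-named PyMT-F1, with medians over all genes past the minimum from -0.0017 to 0.034.

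**Figure D1:**
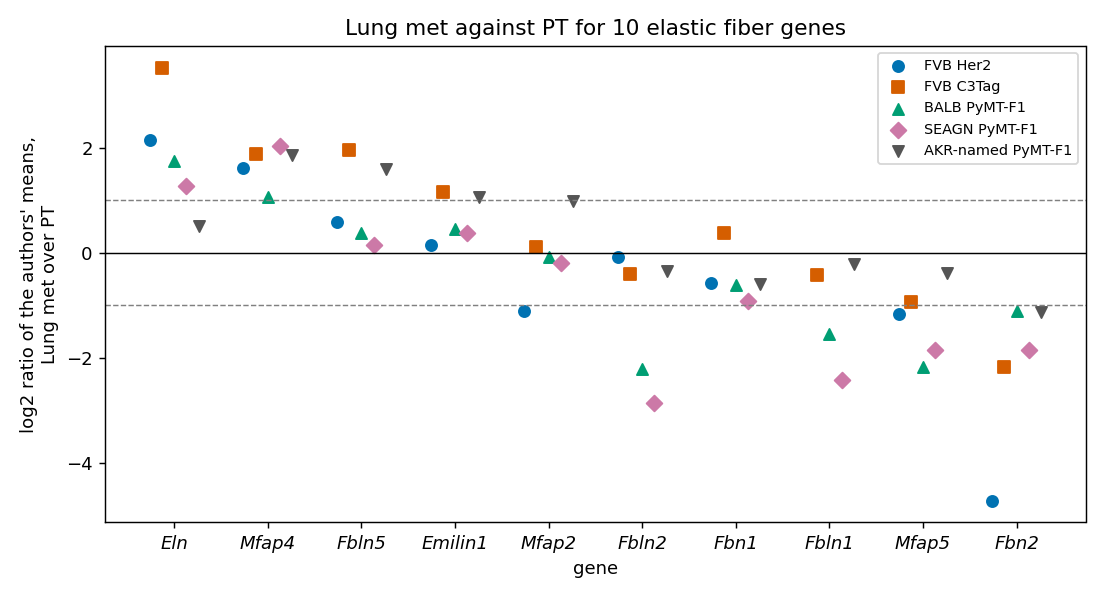
Log2 ratio of the authors' means, Lung met over PT, for each of the 10 genes (x axis, ordered by direction) in 5 tables (symbols), with the solid line at equal means and the dashed lines at 2-fold. Eln, Mfap4, Fbln5 and Emilin1 lie above the solid line in every table, and Fbn2 lies below the lower dashed line in every table, down to -4.71 in FVB Her2.

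Eln encodes tropoelastin, the soluble precursor of the fiber core (GRCm38 chr5:134702593-134747323 (minus strand)). Its authors' mean was 697 in PT and 3098 in Lung met of FVB Her2, a 4.45-fold difference, and 569 in PT and 6548 in Lung met of FVB C3Tag, an 11.5-fold difference. In the PyMT-F1 tables Eln was 396.9 in PT and 1333 in Lung met of BALB, 757 in PT and 1826 in Lung met of SEAGN and 2900.3 in PT and 4115 in Lung met of AKR-named mice. The log2 ratio thus ran from 0.50 in AKR-named mice over 1.27 in SEAGN, 1.75 in BALB and 2.15 in FVB Her2 to 3.52 in FVB C3Tag, and with no spread between samples it cannot be said which neighbours in that order differ. In 4 tables the ratio lay above that of 98.0% to 99.5% of the genes past the minimum, and in AKR-named mice above 84.6%. The models with the smallest ratios were those in which Eln stood high among the genes of its own table in PT. The PT mean is also the denominator of the ratio, so this order is partly built in and nothing is read from it. In PT the Eln mean exceeded that of 89.1% of genes in AKR-named mice and 88.4% in SEAGN, against 75.0% in BALB, 59.0% in FVB Her2 and 59.1% in FVB C3Tag. In Lung met it stood above 89.7%, 97.5%, 93.7%, 96.8% and 93.0% of genes in the order FVB Her2, FVB C3Tag, BALB, SEAGN and AKR-named. An antisense gene, Gm30003, overlaps Eln on the opposite strand, and the counting is not stated to use strand, so reads of both could not be told apart.

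Fbn1 and Fbn2 encode the fibrillins that polymerize into microfibrils, and Fbn2 is the form known chiefly from development. The paralogs differed in how far their means lay apart. Fbn2 was 83.2 in PT and 3.18 in Lung met of FVB Her2, a 26.2-fold lower mean, with the metastasis mean under the minimum of 10. It was 1056 in PT and 234 in Lung met of FVB C3Tag, where Fbn2 was most abundant relative to other genes in PT (above 72.4% of them). For the PyMT-F1 tables the means were 126 in PT and 58.4 in Lung met of BALB, 119 in PT and 32.8 in Lung met of SEAGN and 119 in PT and 54.5 in Lung met of AKR-named mice. Every table put Fbn2 at least 2-fold lower in Lung met, from 2.16-fold in BALB upward, and under 2% of genes had a lower ratio in any table (0.0174% in FVB Her2 and 1.88% in BALB at the ends). With a pseudocount of 10 the log2 ratio of FVB Her2 was -2.82, against -4.71 without it. Those of BALB and AKR-named mice were then -0.996 and -0.998, just short of 2-fold.

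Fbn1 (GRCm38 chr2:125300594-125507993 (minus strand)) passed the 2-fold rule in no table. Its mean was 2440.5 in PT and 1629.6 in Lung met of FVB Her2, 1024 in PT and 674 in Lung met of BALB, 1359.8 in PT and 724 in Lung met of SEAGN and 1570.0 in PT and 1044 in Lung met of AKR-named mice, which are log2 ratios of -0.58, -0.60, -0.91 and -0.59. FVB C3Tag alone went the other way, with 4038 in PT and 5215 in Lung met (log2 ratio 0.37). Per kb of exon, where genes can be compared, the Fbn1 mean was 32.0 times the Fbn2 mean in PT of FVB Her2 and 559 times in Lung met, and 4.16 and 24.3 times in FVB C3Tag. That ratio also differed in the PyMT-F1 tables, but less, with 8.84 and 12.6 in BALB, 12.5 and 24.0 in SEAGN, and 14.4 and 20.9 in AKR-named mice. Gm9913 overlaps Fbn1 and Gm26507 overlaps Fbn2 on the opposite strand, with the same limit as for Eln.

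The 3 fibulins differed in direction. Fbln1 and Fbln2 encode larger fibulins of basement membranes and microfibrils, whereas Fbln5 encodes a short fibulin that binds tropoelastin and lysyl oxidase-like enzymes during fiber assembly. Their promoters are shown because these family members had opposite directions, each over 300 bases of GRCm38.p6 from 250 before to 50 after the RefSeq start, read 5′ to 3′ on the strand of the gene. Where the table lists 2 starts of a gene (Fbln1 and Fbln5), the window listed first is printed. The window of Fbln1 is chr15:85205699-85205998 on the plus strand, that of Fbln2 chr6:91212514-91212813 on the plus strand and that of Fbln5 chr12:101819070-101819369 on the minus strand. Capitals mark a GC box, the letters GGGCGG on either strand.
Fbln1: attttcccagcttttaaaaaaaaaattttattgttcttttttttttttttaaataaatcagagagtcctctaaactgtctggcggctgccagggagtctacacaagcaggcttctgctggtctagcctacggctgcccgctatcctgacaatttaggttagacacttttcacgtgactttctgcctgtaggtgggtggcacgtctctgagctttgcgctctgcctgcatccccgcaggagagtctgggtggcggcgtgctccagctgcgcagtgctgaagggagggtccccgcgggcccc
Fbln2: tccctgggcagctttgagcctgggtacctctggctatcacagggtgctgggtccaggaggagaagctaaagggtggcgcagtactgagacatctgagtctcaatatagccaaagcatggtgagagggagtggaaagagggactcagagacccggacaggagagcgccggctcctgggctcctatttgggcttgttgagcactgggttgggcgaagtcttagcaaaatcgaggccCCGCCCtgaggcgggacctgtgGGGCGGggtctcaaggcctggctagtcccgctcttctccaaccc
Fbln5: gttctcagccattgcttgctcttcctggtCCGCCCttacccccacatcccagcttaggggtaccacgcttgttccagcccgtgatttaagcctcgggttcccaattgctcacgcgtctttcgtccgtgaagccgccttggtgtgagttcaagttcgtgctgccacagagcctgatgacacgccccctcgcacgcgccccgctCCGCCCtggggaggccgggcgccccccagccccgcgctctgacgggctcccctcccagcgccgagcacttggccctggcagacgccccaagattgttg
The GC box letters occurred 2 times each in the Fbln2 and Fbln5 windows and 0 times in that of Fbln1, where 35.7% of the 32851 promoters in the RefSeq table hold it. TATAAA (13.6% of promoters) and the AP-1 letters TGANTCA (7.81%), searched on both strands, occurred in none of the 3 windows and so overlapped no GC box, which says only that these letters are not there. The GC box count depended on the start, since the second window of Fbln1 (chr15:85205758-85206057) held 2 and that of Fbln5 (chr12:101818435-101818734) held 0, again with neither of the other motifs. In the printed windows the GC content was 51.7% for Fbln1, 60.3% for Fbln2 and 65.7% for Fbln5, beside a median of 52.7% over all promoters. Of the 10 members 6 had a promoter in that table, and Eln, Fbn2, Mfap4 and Mfap5 had no entry.

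Fbln2 (GRCm38 chr6:91212455-91272540 (plus strand)) separated the models more than any other member lower in Lung met except Fbn2. It was 759.9 in PT and 165 in Lung met of BALB and 1746 in PT and 242 in Lung met of SEAGN, which are 4.59-fold and 7.23-fold lower means. In FVB Her2 the means were close, 4532 in PT and 4315 in Lung met, and they were 10725 in PT and 8157 in Lung met of FVB C3Tag and 2244 in PT and 1764 in Lung met of AKR-named mice, all under 2-fold. Fbln1 (GRCm38 chr15:85205949-85286535 (plus strand)) showed the same division of tables, 2.90-fold lower in BALB (75.6 against 26.1, PT against Lung met) and 5.36-fold lower in SEAGN (160.4 against 29.9), but only 1.35-fold lower in FVB C3Tag (395 against 294) and 1.16-fold lower in AKR-named mice (153 against 133). The ratio of Fbln2 to Fbln1 per kb differed less between the tissues than either gene in BALB and SEAGN, at 18.6 in PT and 19.0 in Lung met of FVB C3Tag, 6.89 and 4.35 in BALB, 7.46 and 5.54 in SEAGN, and 10.0 and 9.12 in AKR-named mice. BALB and SEAGN are also the tables made on the BALB/cJ annotation, and the cross and the annotation cannot be told apart in them.

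Fbln5 (GRCm38 chr12:101746565-101819055 (minus strand)) passed the 2-fold rule in FVB C3Tag, with 299 in PT and 1152 in Lung met, and in AKR-named mice, with 815 in PT and 2456 in Lung met. It was 821 in PT and 1227 in Lung met of FVB Her2, 158 in PT and 206 in Lung met of BALB and 172 in PT and 192 in Lung met of SEAGN, where the means differed 1.49-, 1.31- and 1.11-fold. Fbln5 thus passed the rule in the 2 tables in which Fbln1 and Fbln2 both had means within 2-fold, and not in BALB and SEAGN, where both of these were past 2-fold lower. Per kb, Fbln5 stood to Fbln2 as 0.192 in PT and 1.15 in Lung met of BALB, as 0.0910 and 0.733 in SEAGN, and as 0.335 and 1.28 in AKR-named mice. Fbln2 stayed the larger of both in SEAGN and in the driver models, the latter with ratios of 0.167 and 0.262 in FVB Her2 and 0.0257 and 0.130 in FVB C3Tag. Fbln5 was known to be higher in Lung met and Fbln2 lower, so the direction of this difference is built in.

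Emilin1 (GRCm38 chr5:30913402-30921277 (plus strand)) encodes EMILIN-1, a glycoprotein that lies where elastin meets the microfibrils. It tracked Fbln5 in direction and in the tables that passed the rule, with 385 in PT and 854 in Lung met of FVB C3Tag and 136 in PT and 285 in Lung met of AKR-named mice, 2.22-fold and 2.10-fold higher. The other tables held 237 in PT and 264 in Lung met of FVB Her2, 73.0 in PT and 99.7 in Lung met of BALB and 94.8 in PT and 123.2 in Lung met of SEAGN, log2 ratios of 0.16, 0.45 and 0.38.

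Mfap4 encodes a fibrinogen-domain protein that binds elastin and fibrillin and is a known component of vessel and lung elastic fibers (GRCm38 chr11:61485431-61488900 (plus strand)). It was the only member at least 2-fold higher in Lung met in all 5 tables, and with a pseudocount of 10 it fell short in BALB (log2 ratio 0.97). Its means were 250.045 in PT and 769 in Lung met of FVB Her2, 241 in PT and 885 in Lung met of FVB C3Tag, 82.2 in PT and 171 in Lung met of BALB, 91.0 in PT and 370.2 in Lung met of SEAGN and 498 in PT and 1804 in Lung met of AKR-named mice. The log2 ratios stayed between 1.05 in BALB and 2.02 in SEAGN, a narrower range than that of Eln, and were above those of 97.4% to 99.2% of genes. The table in which Eln differed least had a ratio of 1.86 for Mfap4. Mapk7 overlaps Mfap4 on the opposite strand.

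Mfap2 and Mfap5 encode the small glycoproteins MAGP-1 and MAGP-2, which bind fibrillin along the microfibril. Mfap5 (GRCm38 chr6:122505845-122529290 (plus strand)) was 439.9 in PT and 196 in Lung met of FVB Her2, 82.0 in PT and 18.3 in Lung met of BALB and 105 in PT and 29.3 in Lung met of SEAGN, 2.24-, 4.49- and 3.59-fold lower means. In FVB C3Tag the means were 375 in PT and 195 in Lung met, a 1.92-fold difference that lay just under the rule, and in AKR-named mice 504 in PT and 388 in Lung met. Mfap2 (GRCm38 chr4:141010418-141015984 (plus strand)) had means under 100 in every column and no common direction. It was 64.0 in PT and 29.8 in Lung met of FVB Her2, 40.3 in PT and 43.5 in Lung met of FVB C3Tag, 9.34 in PT and 8.85 in Lung met of BALB (below the minimum of 10), 17.3 in PT and 15.1 in Lung met of SEAGN and 45.3 in PT and 90.3 in Lung met of AKR-named mice. The last is a 1.99-fold higher mean, just outside the rule, as Mfap4 of BALB at 2.08-fold and Emilin1 of AKR-named mice at 2.10-fold were just inside it.

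**Figure D2:**
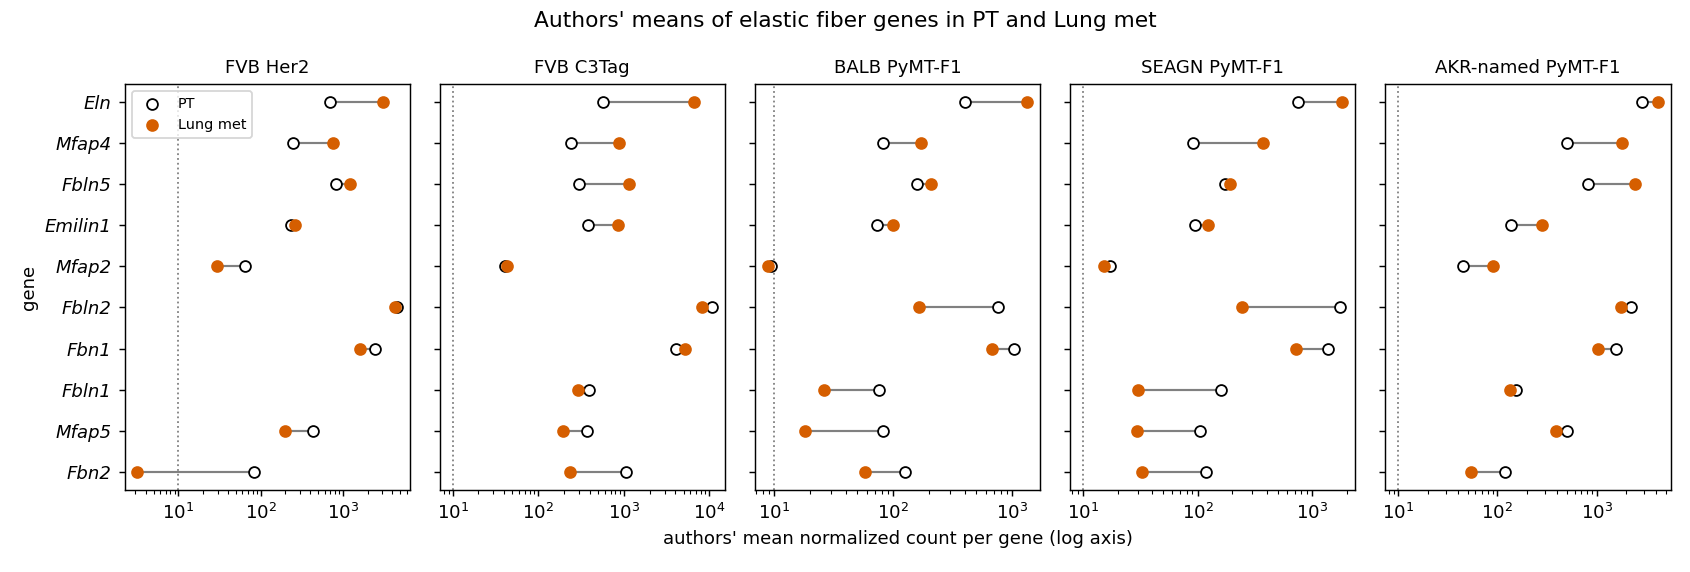
Authors' mean normalized count (x axis, log scale) of each member in PT (open circles) and Lung met (filled circles) in each table, joined by a line, with the dotted line at the minimum mean of 10. The circles of Eln and Mfap4 lie far apart in most panels with Lung met to the right, those of Fbln2 lie apart only in BALB and SEAGN, and Fbn2 of FVB Her2 spans 83.2 against 3.18.

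Read per kb of exon, the make-up of the summed mean differed between the tissues more than its total. Members of both directions were chosen knowingly, so shifts in make-up are partly built in and nothing is read from them. The sum over the 9 members other than Fbln1 was 1.29 times as high in Lung met as in PT in FVB Her2, 1.34 times in FVB C3Tag, 1.08 times in BALB, 0.949 times in SEAGN and 1.68 times in AKR-named mice. Within it, the share of Eln was 5.83% in PT and 20.1% in Lung met of FVB Her2, 2.76% in PT and 23.6% in Lung met of FVB C3Tag, 13.1% in PT and 41.0% in Lung met of BALB and 15.0% in PT and 38.1% in Lung met of SEAGN. AKR-named mice had the smaller Eln share in Lung met, 25.0% in PT and 21.1% in Lung met, but with no division by length the share was 32.8% in PT and 34.3% in Lung met. There, per kb, Mfap4 went from 18.1% to 39.0% and Fbln5 from 8.24% to 14.7%. Fbln2 held the largest share in PT of 4 tables and a smaller one in Lung met of all 5, from 48.2% to 35.6% in FVB Her2, 66.0% to 37.4% in FVB C3Tag, 32.0% to 6.46% in BALB, 43.9% to 6.41% in SEAGN and 24.6% to 11.5% in AKR-named mice. It remained first in Lung met of both driver models, while Eln came first in BALB and SEAGN and Mfap4 in AKR-named mice. With no division by length Eln came first in Lung met of AKR-named mice, and Fbn1 in place of Fbln2 in PT of BALB. The ratio of Eln to Fbn1 per kb, core to scaffold, was 6.66 times as high in Lung met in FVB Her2, 8.90 times in FVB C3Tag, 5.10 times in BALB, 4.54 times in SEAGN and 2.13 times in AKR-named mice. That of Mfap4 to Mfap5 was 6.88, 7.04, 9.32, 14.6 and 4.70 times as high in the same order. These pairs set a gene known to be higher in Lung met against a gene mostly lower there, so their direction is built in. Exon lengths are from GENCODE M21 on GRCm38 and were also applied to the tables on the BALB/cJ annotation, and a transcript shorter than the union of exons has more reads per kb than these values show.

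**Figure D3:**
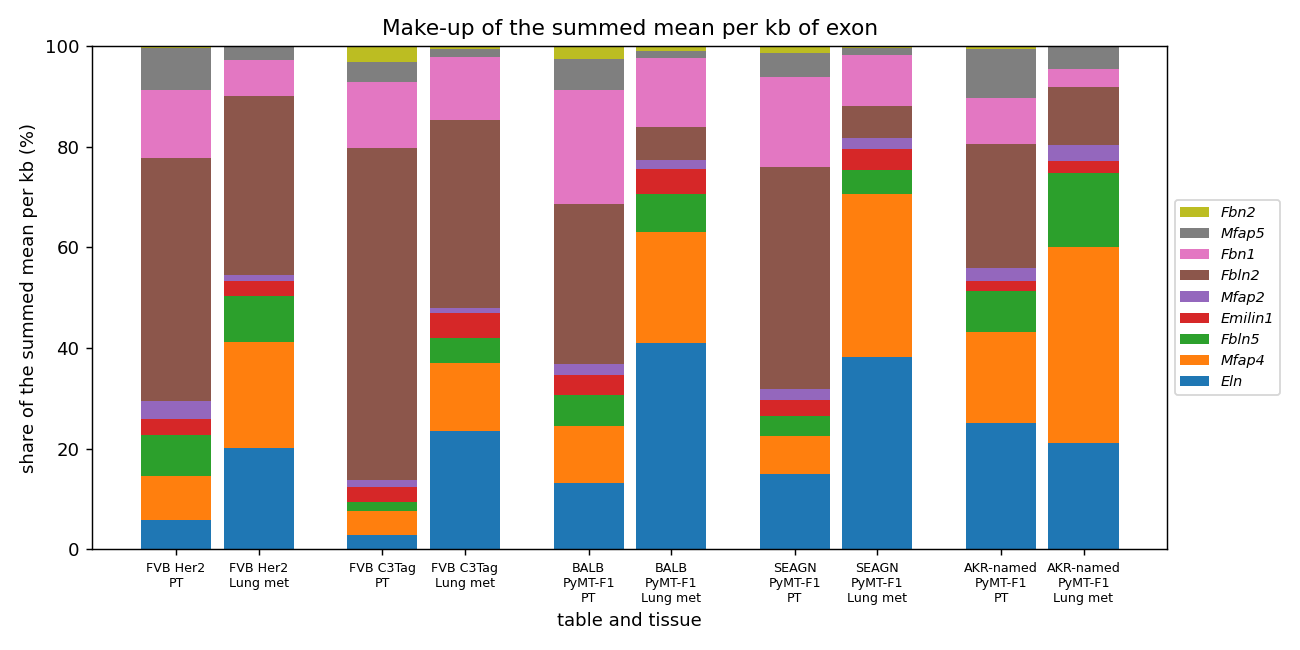
Share (y axis, percent) of each of 9 members in their summed authors' mean per kb of exon, as stacked bars for PT and Lung met of each table, Fbln1 left out because it was not analysed in FVB Her2. The Eln segment goes from 2.76% to 23.6% in FVB C3Tag and from 13.1% to 41.0% in BALB, while the Fbln2 segment is smaller in Lung met of every table.

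The other genes of the elastic fiber, 20 lysyl oxidases, latent TGF-beta binding proteins, remaining fibulins, EMILIN relatives and ADAMTS-like proteins, mostly stayed within 2-fold. In FVB Her2, 1 of 17 measured genes was at least 2-fold higher in Lung met and 1 lower (Hmcn1 and Fbln7). FVB C3Tag had 7 higher and 0 lower of 19, BALB 0 higher and 1 lower (Fbln7), SEAGN 0 and 0, and AKR-named mice 4 higher (Efemp1, Hmcn1, Mmrn1 and Adamtsl5) and 1 lower (Fbln7). The median log2 ratio of the list was 0.15, 0.72, 0.04, -0.21 and 0.32 in the order FVB Her2, FVB C3Tag, BALB, SEAGN and AKR-named. Of all genes past the minimum, 2.37%, 7.61%, 2.21%, 2.87% and 7.37% were at least 2-fold higher in that order. The shares at least 2-fold lower were 1.44%, 1.68%, 2.28%, 3.15% and 1.72%. Genes named here outside the fixed rule, Fbln7, Efemp1, Mmrn1 and Adamtsl5, were chosen after their values were seen.

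Hmcn1, the large fibulin relative hemicentin, had the highest median among the list's genes with a mean of at least 10 in every table, with log2 ratios of 1.56, 0.90, 0.84, 0.85 and 1.31 in that order. Adamtsl4, whose protein promotes fibrillin microfibrils, came second among them with 0.46, 1.18, 0.56, -0.28 and 0.77. At their low end lay the fibrillin-binding protease gene Adamts10, with 0.06, 0.37, -0.55, -0.47 and -0.34, and Ltbp3, a latent TGF-beta binding protein gene, with 0.16, -0.05, -0.42, -0.63 and -0.25. Neither reached 2-fold in any table.

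Receptors for elastic fiber proteins, 11 integrin and other genes, were still closer to equality. None was at least 2-fold lower in any table, and 1 was higher in FVB C3Tag (Itgb6, 261 against 663 as PT against Lung met) and 1 in AKR-named mice (Lgals3, chosen after its value was seen). Of all genes past the minimum, 7.61% and 7.37% were at least 2-fold higher in these 2 tables. Itga8, an integrin subunit of smooth muscle and fibroblasts, had log2 ratios from 0.28 to 0.87, while the subunit genes Itgb3 and Itgb5 had medians of -0.17 and -0.03 over the tables. The median of the list lay between 0.01 in SEAGN and 0.29 in FVB C3Tag.

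Markers of other cell types also differed between the tissues, and in bulk RNA fewer cells of a type and less RNA per cell cannot be told apart. Lung epithelium is part of what a whole lung metastasis can hold, and 4 of its 6 measured markers were at least 2-fold higher in Lung met in FVB Her2, BALB, SEAGN and AKR-named mice and 6 of 6 in FVB C3Tag. Of all genes past the minimum, 2.21% (BALB) to 7.61% (FVB C3Tag) were at least 2-fold higher. Ager, a marker of alveolar type 1 cells, was 62.5 against 1847 (PT against Lung met) in FVB Her2, 80.4 against 2166 in FVB C3Tag, 17.6 against 290.3 in BALB, 16.7 against 579.8 in SEAGN and 214 against 9532 in AKR-named mice. Lamp3, of alveolar type 2 cells, had log2 ratios from 4.62 to 7.84. Among the markers within 2-fold in 4 tables, Aqp5 and Abca3 had high PT means as well, up to 57616 and 5907 in FVB Her2. The summed mean of the 6 markers was 0.969 times as high in Lung met as in PT in FVB Her2, 5.91 in FVB C3Tag, 0.958 in BALB, 1.90 in SEAGN and 1.83 in AKR-named mice, and no marker among them was at 0 in either tissue.

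Endothelial markers, of interest because vessel walls hold elastin, were at least 2-fold higher in Lung met for 3, 5, 2, 2 and 6 of 7 genes in the order FVB Her2, FVB C3Tag, BALB, SEAGN and AKR-named. Their summed mean was 1.69, 2.95, 1.60, 1.73 and 3.58 times as high. Vwf, made by endothelium of larger vessels, had log2 ratios from 1.62 to 3.23, and Pecam1 from 0.44 to 1.87. Emcn, chosen after its value was seen, was lower in BALB (-0.22) and SEAGN (-0.33) and higher in the other tables. Fbln5 and Emilin1 passed the 2-fold rule in the same 2 tables, FVB C3Tag and AKR-named, in which the most endothelial markers did. These 2 tables also had the largest shares of all genes at least 2-fold higher, 7.61% and 7.37%. In the other tables the share was 2.21% to 2.87%, and a link of these genes to endothelium was not tested. Smooth muscle and pericyte markers, genes of cells that make elastin in vessel and airway walls, showed 0 of 7 higher and 0 lower in FVB Her2 and FVB C3Tag, 0 higher and 1 lower in BALB (Des), 0 of 4 in SEAGN and 1 of 4 higher in AKR-named mice (Des). Their summed mean was 1.34, 1.05, 0.840, 1.17 and 2.04 times as high in Lung met. Of all genes past the minimum, 2.28% were at least 2-fold lower in BALB and 7.37% higher in AKR-named mice.

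Fibroblast markers went the opposite way, lower in Lung met by at least 2-fold for 6, 1, 5, 6 and 6 of 7 genes in the same order and higher for none. Of all genes past the minimum, 1.44%, 1.68%, 2.28%, 3.15% and 1.72% were lower. The median log2 ratio of the fibroblast markers was -1.34, -0.06, -1.74, -2.32 and -1.41, and the summed mean 0.444, 0.916, 0.313, 0.195 and 0.390 times as high. Lum, the matrix proteoglycan lumican, was 419.8 against 23.3 (PT against Lung met) in FVB Her2, 412 against 133 in FVB C3Tag, 115 against 4.45 in BALB, 198 against 4.73 in SEAGN and 893 against 54.2 in AKR-named mice. Col1a2 had log2 ratios of -1.13, -0.06, -1.74, -2.32 and -1.52, and the receptor gene Pdgfra was an exception, with a higher mean in Lung met in all 5 tables (0.44 to 0.94). The lowest fibroblast medians, in SEAGN and BALB, were in the tables with the lowest Fbln2 and Fbln1 ratios. FVB Her2 had a fibroblast median of -1.34 with Fbln2 at -0.07 and Fbln1 not analysed. AKR-named mice had a fibroblast median of -1.41 with Fbln2 at -0.35, and FVB C3Tag one of -0.06 with Fbln2 at -0.39. The part of these cell types in the results for Eln, Mfap4, Fbln1, Fbln2, Fbln5, Emilin1, Mfap5 and Fbn2 was not tested.

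**Figure D4:**
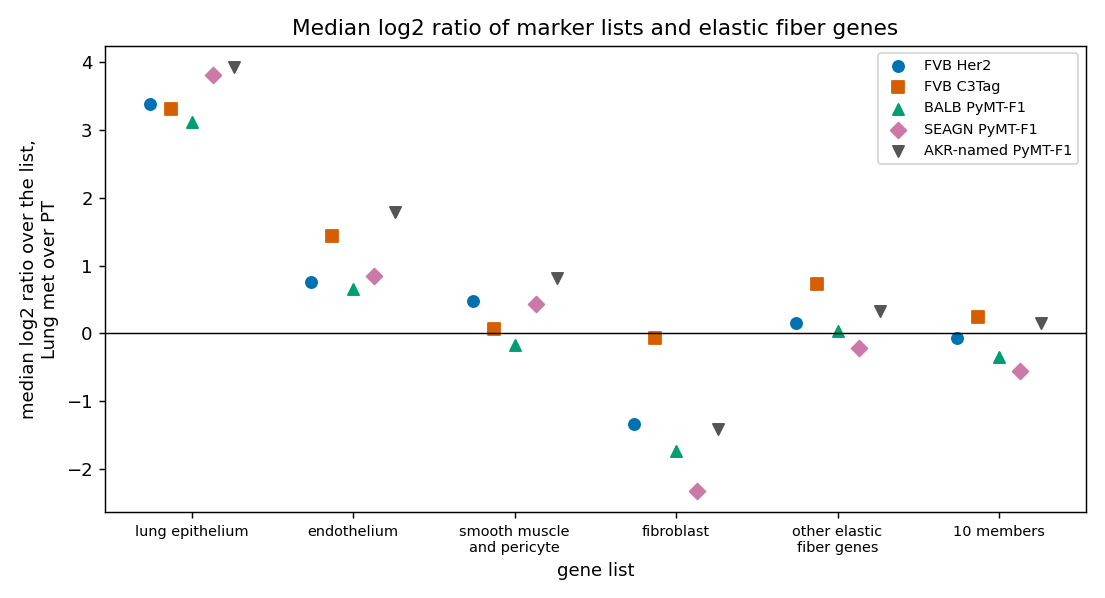
Median log2 ratio, Lung met over PT (y axis), of 4 cell type marker lists, of the other elastic fiber genes and of the 10 members (x axis) in 5 tables (symbols). Lung epithelium lies between 3.11 and 3.92, fibroblasts between -2.32 and -0.06, and the members between -0.55 and 0.24.

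The remaining marker lists differed less or rested on few genes. Mammary luminal epithelium had medians from 0.0023 to 0.21, with Epcam, Cdh1 and Krt8 within 2-fold in every table. The milk protein genes of that list, named after their values were seen, were past 2-fold where measured except for Csn2 of AKR-named mice (0.47). Wap had log2 ratios of 2.68 in FVB Her2, 2.82 in BALB, -1.61 in SEAGN and -1.39 in AKR-named mice, and Csn2 of 1.47 in FVB Her2 and 2.45 in SEAGN. Macrophage markers (3 measured) had medians from -0.32 to 0.26, and alveolar fibroblast markers (2 to 4 measured) from 0.13 to 2.10. The alveolar fibroblast medians rest on different genes per table, since only Npnt and Limch1 had means in every table. In AKR-named mice, which had the 2.10, these were at -0.73 and 1.11. Inmt, chosen after its value was seen, had means in that table alone, with a log2 ratio of 6.91. Myoepithelial medians ran from -1.30 in FVB C3Tag to 1.09 in FVB Her2, where Krt14 differed as 5105 against 1798 and 15.6 against 33.0 (PT against Lung met). Of adipocyte and mesothelium lists at most 1 and 2 genes were measured per table. Fabp4 was lower in Lung met in the 4 tables with a mean for it, with log2 ratios from -2.73 in SEAGN to -0.38 in FVB Her2, and mesothelium had a value in FVB C3Tag alone, a median of 1.80.

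Among 11930 genes with a mean of at least 10 in every table, the log2 ratios of Lepr were nearest to those of Eln over the 5 tables, with a root mean square difference of 0.634. Lepr, the leptin receptor gene, had ratios of 1.42, 2.76, 1.08, 0.98 and -0.09 in the order FVB Her2, FVB C3Tag, BALB, SEAGN and AKR-named, also highest in FVB C3Tag and lowest in AKR-named mice. Prdm16, Muc1, B3gnt7 and Zfp57 followed at 0.720, 0.738, 0.785 and 0.798. Nearest to Fbn2, the member with the lowest median ratio over all 5 tables, were Apod, Serpinf1, Fcrls, Thy1 and Cpz, but at larger distances of 1.26, 1.32, 1.37, 1.38 and 1.42. None of these 5 genes was as low as Fbn2 in FVB Her2, where Apod at -2.89 came closest. With 5 tables, likeness in these ratios is a description and says nothing of function.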

How the data were processed

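Deposited tables of 5 models were used. The deposited signal values are least-squares means per tissue that the authors fitted to normalized counts, from reads processed in Partek Flow (the study's methods name mm9 in 1 place and mm10 in another, and the submitters' processing notes list STAR 2.7.8a, DESeq2 and mm39). The normalization method is not given in the sources used here. The AKR-named table, kept as other because its cross was not settled, holds the same kind of deposited means. Columns of p-values, FDR, ratios and fold changes are the authors' comparisons and entered no value given here, and the Myc table holds only p-values and FDR. Fold changes of the AKR-named table were only looked up against the study's supplement, as described above. Depth per sample is unknown.

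From the means, log2 ratios of Lung met over PT were computed with no pseudocount, counted at 2-fold with a higher mean of at least 10, by Python 3.11.15 and pandas 2.3.3 scripts tested on simulated data. Of rows that share a symbol, the one with the highest mean was used. Lengths and coordinates come from GENCODE M21 (GRCm38), promoters from RefSeq (GRCm38.p6). The members and lists were chosen with earlier results of these data known. Genes picked for naming were all members, the 2 highest and 2 lowest of each list by median log2 ratio among genes with a higher mean of at least 10 in every table, and the 5 genes nearest to Eln and to Fbn2. Some genes picked from the lists, such as Prtn3, Fap, Kdr and Cldn5, have no values given in the text. Other folds, minimums, pseudocounts, centring and summed rows were tried.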

Additional observations from a re-analysis of the deposited data

How the results depend on the processing

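Members at least 2-fold lower in Lung met in FVB Her2 numbered 1 instead of 3 with a fold of 3 and with a higher mean of at least 100. In FVB C3Tag 2 were lower, not 1, with a fold of 1.5. In BALB PyMT-F1 1 instead of 2 was higher with a fold of 3 and with a pseudocount of 10, and 2 instead of 4 were lower with a fold of 3 and with a higher mean of at least 100. In SEAGN PyMT-F1 1 instead of 2 was higher with a fold of 3. In AKR-named PyMT-F1 2 instead of 1 were lower with a fold of 1.5, and 0 with a fold of 3 or a pseudocount of 10. With the pseudocount of 10 the lower members were also 2 instead of 3 in FVB Her2 and 3 instead of 4 in BALB PyMT-F1, and the calls lost were Mfap2 in FVB Her2, Mfap4 and Fbn2 in BALB and Fbn2 in AKR-named PyMT-F1. These moves follow from the settings themselves. No member's log2 ratio within a table changed sign under the alternatives tried. Leaving out 1 table at a time changed the sign of a median over the tables for Mfap2 only. It was -0.077 over all tables and 0.015 without FVB Her2 or without SEAGN PyMT-F1. Other medians moved in size, such as that of Fbln2 from -0.39 to -1.30 without FVB Her2. Within 0.1 on the log2 scale of the main value stayed 48 of 48 ratios with no filter, with centring on the median of all genes and with rows of a symbol summed, 47 with a pseudocount of 1 and 37 with a pseudocount of 10, and 40 of 40 with the higher minimum. No paired analysis was possible because the tables hold group means, although the titles pair both tissues of each mouse, and for the same reason no replicate could be left out. The depth of the samples is unknown, so no limit of detection can be set for low means such as Fbn2 in Lung met of FVB Her2. In PT of FVB C3Tag 1 gene, Gm22614, held 38.3% of the summed means, and how the unnamed normalization treated it was not tested.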

Other observations

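The proteases that cleave elastin and their inhibitors, which belong in no comparison above, differed gene by gene. Mmp12, the macrophage elastase, had a mean at least 2-fold higher in Lung met in all 5 tables, 241 against 786 (PT against Lung met) in FVB Her2, 422 against 1625 in FVB C3Tag, 68.2 against 279 in BALB, 52.7 against 263 in SEAGN and 304 against 4101 in AKR-named mice. Mmp2, a gelatinase made largely by stromal cells, was lower in all 5, by at least 2-fold in 4 of them, with log2 ratios of -1.67, -0.28, -2.13, -1.85 and -1.13 in the same order. Mmp9, a gelatinase known from neutrophils and macrophages, was higher in 4 tables, with log2 ratios of 2.09 in FVB C3Tag, 0.68 in BALB, 1.41 in SEAGN and 2.92 in AKR-named mice, and lower in FVB Her2 at -1.38 (32.6 against 12.6). Of 7 measured proteases 1, 3, 1, 2 and 2 were at least 2-fold higher and 2, 0, 1, 1 and 1 lower. Of all genes past the minimum, 2.37%, 7.61%, 2.21%, 2.87% and 7.37% were higher and 1.44%, 1.68%, 2.28%, 3.15% and 1.72% lower. Adgre1 and Csf1r, markers of macrophages, were within 2-fold in every table, with log2 ratios from -0.40 to 0.26, while Cd68, the other measured macrophage marker, ran from 0.07 in FVB Her2 to 1.16 in AKR-named mice.

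Among the inhibitors, Timp3, which binds the matrix, had a higher mean in Lung met in all 5 tables, with log2 ratios from 0.10 in BALB to 0.92 in AKR-named mice. Timp2 was 3597 against 7403 in FVB C3Tag and 1919 against 809.8 in SEAGN (PT against Lung met), opposite directions past 2-fold. Timp1 had log2 ratios of 0.86 and -1.37 in the same tables. Cst3, the cathepsin inhibitor cystatin C, was highest against PT in AKR-named mice at 1.503. Over the measured inhibitors the median log2 ratio was -0.21, 0.79, -0.04, -1.24 and 0.73, from 8, 7, 5, 5 and 6 genes.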
